A study of Homo sapiens with 4 samples.

Results

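The genes described here are the zinc finger genes of human chromosome 19 whose names take the form ZNF and a number, with or without a letter after it. They were chosen by name, by chromosome, by protein-coding biotype in the deposited table and by level, and 221 of 249 such genes reached a mean of 10 counts per library. The table held 35993 genes in all, of which 16599 passed the same minimum. Most of these genes encode KRAB zinc finger proteins, which arose by tandem duplication and lie in clusters along both arms of the chromosome. Their C2H2 fingers read DNA, often the sequence of a family of transposable elements, and the KRAB domain binds TRIM28, which brings in the methyltransferase SETDB1, heterochromatin protein 1 and histone deacetylases to silence the site. In most cells they are transcribed at low levels, and little is known of them in triple-negative breast cancer (TNBC).

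RNA-Seq was performed on MDA-MB-231 cells, a mesenchymal-like line of TNBC grown from the metastatic cells of a single tumor. The 4 libraries stood for the 4 combinations of transfected siRNA and treatment, with 1 library each: control siRNA without kahweol (siControl), CTGF siRNA without kahweol (siCTGF), control siRNA with 50 µM kahweol for 48 h (siControl_KW) and CTGF siRNA with the same treatment (siCTGF_KW). All 4 were transfected with an siRNA, the controls included. The duration of treatment is that of the labels, and the text of the study also gives a shorter one for kahweol. Kahweol, a diterpene of coffee beans, was given in serum-free medium, and what the untreated cells received in its place is not given in the sources used here. CTGF, listed under its current symbol CCN2, stood at 159 CPM (counts scaled to the TMM library size) in siControl, 63.6 in siCTGF, 186 in siControl_KW and 31.8 in siCTGF_KW, so that both libraries of CTGF siRNA lay under both of control siRNA. Total counts per library were 44781516 to 59129784. Among 4 markers of the line, VIM stood at 2082 to 2819 TPM (a level per length of transcript), and of 7 markers taken as low in it, ESR1 and PGR were at 0.0928 TPM or less, whereas KRT8, EPCAM and ERBB2 were at 20.1 TPM or more in every library. Of 5 fibroblast markers, COL1A1 stood at 1.08 to 1.55 TPM and the others at or near 0.

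No condition had a replicate, so the values were read on 2 scales. Each fold change between single libraries is given as a log2 difference of CPM with an exact 95% counting interval, which takes 2 reads as 1 fragment and covers counting error only, and it is set against the fold thresholds of 1.3 and 0.7. In addition, a quasi-likelihood model was fitted in edgeR, with p-values adjusted by Benjamini-Hochberg, across all 16599 genes on the 4 libraries, 2 against 2, with the other factor as covariate. This additive fit had 1 residual degree of freedom and took any difference between the effects in the 2 backgrounds as noise. Its p-values measure the spread between these 4 libraries and not between cultures. Because RNA-Seq of a whole dish gives shares of the RNA, fewer cells with a transcript and less of it per cell cannot be told apart, and neither can a change in the total RNA of a cell.

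The 221 genes together took 0.302% of all counts in siControl, 0.331% in siCTGF, 0.439% in siControl_KW and 0.468% in siCTGF_KW. Their summed level was 2861, 3165, 4555 and 4978 CPM in the same order. Both kahweol libraries were thus above both untreated ones, and within each treatment the CTGF siRNA library was slightly above that of control siRNA. The median level of a gene was 4.86 TPM in siControl, 4.95 in siCTGF, 6.54 in siControl_KW and 6.83 in siCTGF_KW. On the mean TPM over the 4 libraries the genes ranged from 0.168 (ZNF540) to 91.8 (ZNF146), with a median of 6.07 beside 13.6 for all protein-coding genes kept, and 16 of them were under 1 TPM and 58 over 10 TPM.

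The most abundant member per length was ZNF146, a protein made of fingers with no KRAB domain that has been studied for its overexpression in tumors, at 80.2 TPM in siControl, 86.7 in siCTGF, 98.4 in siControl_KW and 102 in siCTGF_KW. ZNF114 followed at 93.2 TPM in siControl, 78.2 in siCTGF, 52.4 in siControl_KW and 43.5 in siCTGF_KW, and it was above ZNF146 in siControl only. ZNF317 was at 20.9 TPM in siControl, 23.5 in siCTGF, 52.4 in siControl_KW and 68.8 in siCTGF_KW, which placed it under ZNF428 in untreated cells and above it in both kahweol libraries. ZNF428 came next at 41.3 TPM in siControl, 33.97 in siCTGF, 25.3 in siControl_KW and 33.7 in siCTGF_KW. The ranges of ZNF581, 21.6 to 39.6 TPM, and ZNF544, 22.6 to 39.7 TPM, overlapped with that of ZNF428, and the order of these 3 changed between libraries.

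The members nearest to the minimum were ZNF582, ZNF233 and ZNF540, with mean counts of 34.5, 26.0 and 14.8, and just outside it were ZNF56, ZNF560 and ZNF793, with mean counts of 8.0, 7.5 and 5.0. Among the 28 genes left out, 12 had no count in any library. Of the 221 members, 203 had a mean count of at least 100, and ZNF177 and ZNF540 had no count in siControl.

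The majority of these genes were higher with kahweol. In the additive fit 138 of 221 members were higher with kahweol and 12 were lower (62.4% and 5.43%), where 22.9% of all 16599 genes were higher and 23.6% lower. The 138 members that rose did so by a median of 1.02 on the log2 scale, with a range of 0.33 to 3.00. The value of 3.00 was that of ZNF540, near the count minimum. Its counts were 0 in siControl, 10 in siCTGF, 10 in siControl_KW and 39 in siCTGF_KW. In 130 of the 138 the fold was over 1.3 in siControl and in siCTGF cells alike. In 59 of the 138, called on these same libraries, the level more than doubled in both siRNA backgrounds. The share of all genes that did so was not computed. Over all 221 members the median fitted log2 fold change was 0.68, beside -0.01 for all genes. The other 71 members did not pass the test, with fitted values from -0.82 to 2.87 and a median of 0.11, and 43 of these values were above 0. The highest was that of ZNF177, which had no count in siControl and shares its locus with a read-through gene.

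The separate comparisons gave the same picture. In siControl cells 148 members were over 1.3-fold and 15 under 0.7-fold with kahweol, where 28.1% and 26.3% of all genes were. In siCTGF cells the counts were 149 and 13, beside 28.4% and 24.2% of all genes. The median log2 fold change of the members was 0.67 in each, and the counting interval lay above 0 for 156 members and below 0 for 20 in siControl cells (33.7% and 35.7% of all genes) and for 157 and 21 in siCTGF cells (33.8% and 33.9% of all genes). These 2 comparisons share no library. In both, 136 members were over 1.3-fold and 9 under 0.7-fold, beside 20.7% and 18.2% of all genes. In addition, 1 member crossed the thresholds in opposite directions, as did 382 of all genes, and 196 of 221 (88.7%) had the same sign, beside 82.9% of all genes. For 157 members both kahweol libraries lay above both untreated ones, and for 25 both lay below, where 36.0% and 37.1% of all genes did so.

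**Figure D1:**
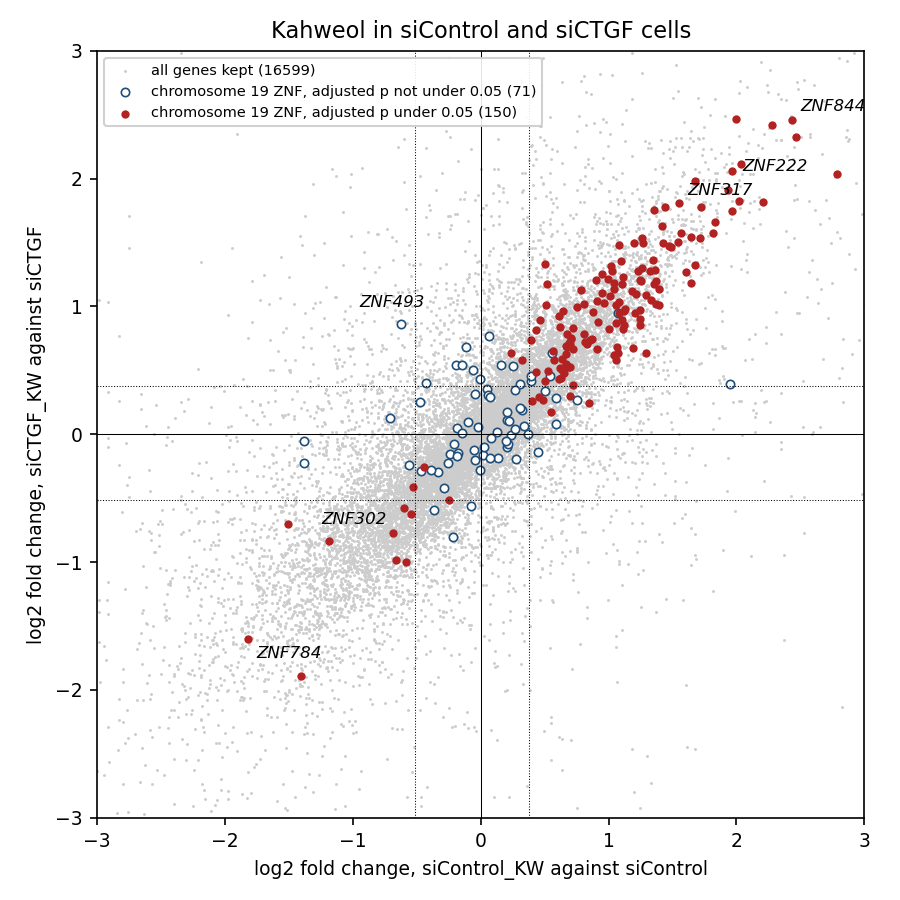
Log2 fold change with kahweol in siControl cells (x axis) and in siCTGF cells (y axis) for all 16599 genes kept (grey) and the 221 chromosome 19 ZNF genes (filled red where the additive fit gave an adjusted p under 0.05, open otherwise). Dotted lines mark folds of 1.3 and 0.7, 136 members lie beyond the upper line on both axes, and 1 member with no count in siControl (ZNF177) lies outside the axes.

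Other genes of the chromosome were lower more often than higher. Of 788 other protein-coding genes of chromosome 19, 137 were higher and 231 lower with kahweol (17.4% and 29.3%), with median log2 fold changes of -0.20 in siControl cells and -0.06 in siCTGF cells. The 235 genes of the same name form on other chromosomes lay in between, with 96 higher and 23 lower (40.9% and 9.79%) and medians of 0.32 and 0.28. These shares describe the sets and were not tested against each other. The sets also differed in base composition. The median transcript GC content was 60.9% in the 788 genes, 42.4% in the members and 45.4% in the ZNF genes on other chromosomes. Among all protein-coding genes with a transcript GC content above 57.6%, 448 of 3462 (12.9%) were higher with kahweol and 1311 lower. The part of base composition in the contrast with the 788 genes was not tested.

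The 6 members of mean count of at least 100 with the strongest rise in both comparisons were ZNF844, ZNF878, ZNF442, ZNF222, ZNF547 and ZNF615, all with a KRAB pattern in the encoded protein. ZNF844 (chr19:12175546-12192380, plus strand, GRCh37) was at 10.9 CPM in siControl, 12.5 in siCTGF, 59.1 in siControl_KW and 69.03 in siCTGF_KW. Both kahweol libraries were far above both untreated ones. The log2 fold change was 2.43 (interval 2.27 to 2.62) in siControl cells and 2.46 (2.29 to 2.64) in siCTGF cells, and the fitted value was 2.45 ± 0.09 (SE, adjusted p = 1.74e-05, edgeR quasi-likelihood test, Benjamini-Hochberg adjusted). ZNF442 (chr19:12456758-12476497, minus strand), from the same cluster, was at 2.34 CPM in siControl, 1.76 in siCTGF, 9.72 in siControl_KW and 7.75 in siCTGF_KW. Its log2 fold changes were 2.04 in siControl cells and 2.12 in siCTGF cells. ZNF222 (chr19:44529494-44537263, plus strand) was at 6.27 CPM in siControl, 6.36 in siCTGF, 24.6 in siControl_KW and 26.7 in siCTGF_KW. It rose by 1.97 in siControl cells and 2.06 in siCTGF cells on the log2 scale, and the counts of the untreated libraries, 392 and 344, did not overlap those of the treated ones, 1064 and 1184.

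ZNF615 (chr19:52494585-52511483, minus strand) was at 7.09 CPM in siControl, 8.50 in siCTGF, 28.8 in siControl_KW and 30.1 in siCTGF_KW, with log2 fold changes of 2.02 in siControl cells and 1.82 in siCTGF cells. ZNF878 (chr19:12154620-12163776, minus strand) was lower in level, at 1.31 CPM in siControl, 1.20 in siCTGF, 6.53 in siControl_KW and 6.58 in siCTGF_KW, and its log2 fold changes of 2.28 in siControl cells and 2.42 in siCTGF cells carried intervals of 1.80 to 2.85 and 1.90 to 3.05. It overlaps the antisense gene ZNF433-AS1 on the other strand, and the strand setting of the counting is not given in the sources used here. ZNF547 (chr19:57874803-57890927, plus strand) overlaps TRAPPC2B on the same strand, so that its reads may be shared with it. It stood at 2.48 CPM in siControl, 3.34 in siCTGF, 9.61 in siControl_KW and 12.7 in siCTGF_KW. Its log2 fold changes were 1.94 in siControl cells and 1.91 in siCTGF cells. For the 6 genes, chosen by their rise in these libraries, both treated libraries lay above both untreated ones. Within a treatment their 2 siRNA libraries differed by -0.40 to 0.43 on the log2 scale.

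ZNF317 combined a strong rise with a high level. It encodes a KRAB zinc finger protein, lies at chr19:9251073-9274089 and was at 40.98 CPM in siControl, 47.9 in siCTGF, 120.4 in siControl_KW and 168 in siCTGF_KW. The log2 fold changes were 1.55 in siControl cells and 1.81 in siCTGF cells, and the fitted value was 1.68 ± 0.10 (SE, adjusted p = 5.31e-05, edgeR quasi-likelihood test, Benjamini-Hochberg adjusted).

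The 12 members that fell with kahweol were ZNF114, ZNF302, ZNF320, ZNF347, ZNF497, ZNF544, ZNF587, ZNF665, ZNF69, ZNF784, ZNF83 and ZNF837, by a median of 0.77 on the log2 scale, and DESeq2 called 7 of them. For all 12 both kahweol libraries lay below both untreated ones, where 37.1% of all genes, called or not, did so. The 12 were called as lower on these same libraries, so that this separation is no separate support for the calls. ZNF302 (chr19:35168544-35177302, plus strand) was at 23.7 CPM in siControl, 26.9 in siCTGF, 10.4 in siControl_KW and 15.1 in siCTGF_KW. It dropped by 1.18 on the log2 scale in siControl cells (interval -1.41 to -0.97) and by 0.84 in siCTGF cells (-1.03 to -0.65), with an adjusted p of 0.000605 (edgeR quasi-likelihood test, Benjamini-Hochberg adjusted). ZNF114 (chr19:48773338-48790865), the second most abundant member, was at 112 CPM in siControl, 97.6 in siCTGF, 74.1 in siControl_KW and 65.3 in siCTGF_KW. The log2 fold changes of -0.60 in siControl cells and -0.58 in siCTGF cells were nearly equal.

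Of the 12, ZNF320, ZNF83, ZNF347 and ZNF665 lie in the cluster that also holds 24 members that rose. ZNF347 (chr19:53638188-53662313) and ZNF665 (chr19:53665677-53696611) are next to each other on the minus strand. ZNF347 was at 38.3 CPM in siControl, 37.7 in siCTGF, 23.8 in siControl_KW and 22.05 in siCTGF_KW, and ZNF665 was at 4.19 CPM in siControl, 5.63 in siCTGF, 2.64 in siControl_KW and 2.84 in siCTGF_KW. The log2 fold changes were -0.69 in siControl cells and -0.77 in siCTGF cells for ZNF347 and -0.66 in siControl cells and -0.98 in siCTGF cells for ZNF665. ZNF69 (chr19:11998597-12025371) was at 6.94 CPM in siControl, 9.59 in siCTGF, 4.61 in siControl_KW and 4.77 in siCTGF_KW and lies in the cluster of ZNF844, where 19 members rose and ZNF69 alone fell past the test.

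The largest fitted decreases were those of ZNF784 and ZNF497, at low counts. ZNF784 had counts of 88 in siControl, 93 in siCTGF, 16 in siControl_KW and 24 in siCTGF_KW, and ZNF497 had 100 in siControl, 128 in siCTGF, 25 in siControl_KW and 27 in siCTGF_KW. Their fitted log2 fold changes were -1.79 ± 0.48 and -1.71 ± 0.44 (SE). Both genes have GC-rich transcripts, of 64.8% and 62.6% GC, as has ZNF837 with 70.1%, and none of the 3 has a KRAB pattern. ZNF837 was at 4.16 CPM in siControl, 2.40 in siCTGF, 1.44 in siControl_KW and 1.46 in siCTGF_KW.

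**Figure D2:**
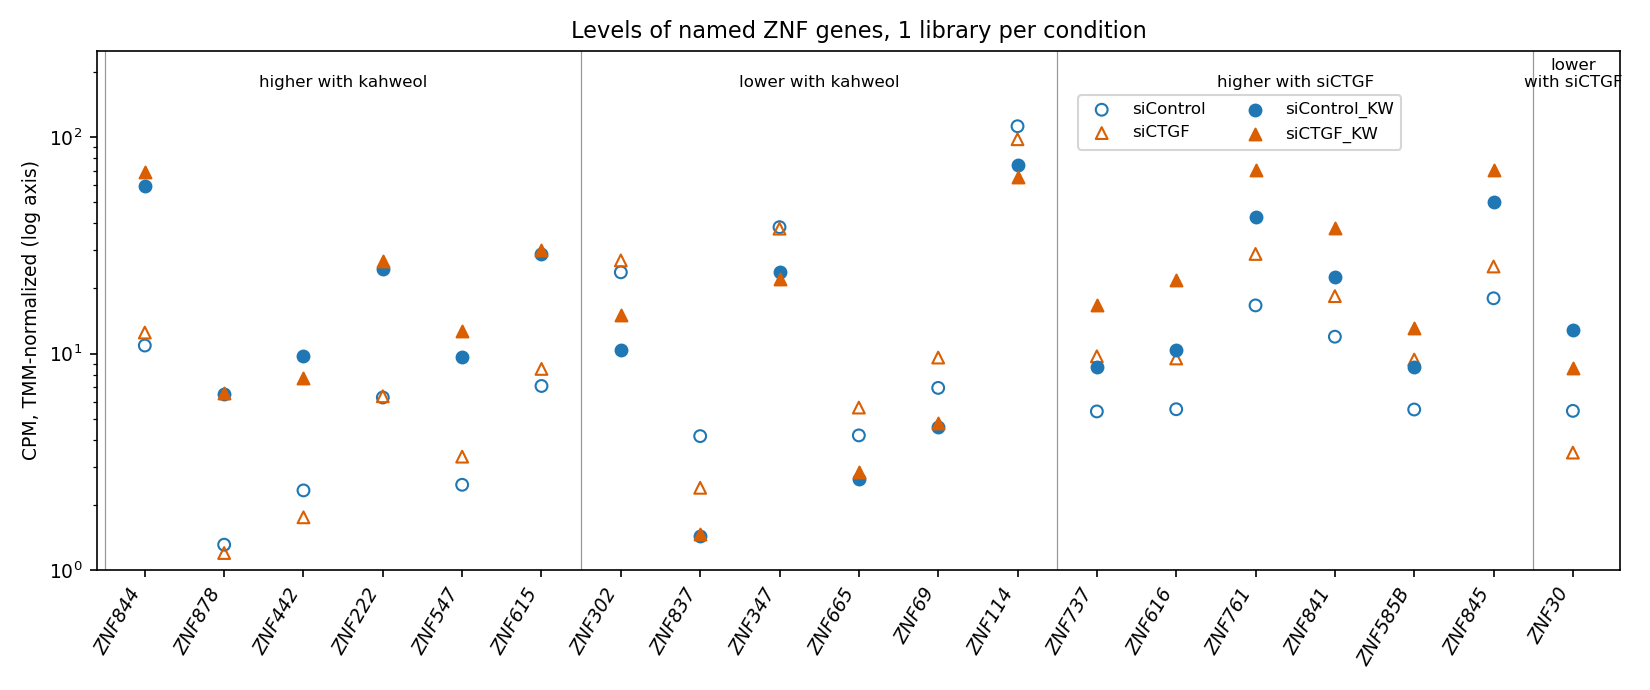
CPM of 19 named ZNF genes in the 4 libraries on a log axis, with circles for control siRNA, triangles for CTGF siRNA, open symbols for untreated cells and filled symbols for kahweol. In the first 6 genes both filled symbols lie above both open ones, in the next 6 below them, and in the last 7 the triangles lie to one side of the circles within each treatment.

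The promoters of 7 members are given from RefSeq (GRCh38.p14), 250 bases before to 50 bases after the start of the gene, so that those of genes that moved apart can be read beside each other. They are 4 genes that rose with kahweol, ZNF844 (chr19:12064481-12064780), ZNF222 (chr19:44025129-44025428), ZNF615 (chr19:52008162-52008461, minus strand) and ZNF317 (chr19:9140147-9140446), 2 that fell, ZNF302 (chr19:34677428-34677727) and ZNF347 (chr19:53159004-53159303, minus strand), and ZNF761 (chr19:53431734-53432033), the gene called with CTGF siRNA. Capitals mark the core letters of an ETS site, CCGGAA, on either strand.
ZNF844: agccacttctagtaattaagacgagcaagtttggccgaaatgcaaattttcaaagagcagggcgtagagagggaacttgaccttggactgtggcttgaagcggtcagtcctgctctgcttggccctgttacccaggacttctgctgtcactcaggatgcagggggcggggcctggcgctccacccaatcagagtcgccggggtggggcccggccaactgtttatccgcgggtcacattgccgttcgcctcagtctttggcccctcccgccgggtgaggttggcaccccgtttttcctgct
ZNF222: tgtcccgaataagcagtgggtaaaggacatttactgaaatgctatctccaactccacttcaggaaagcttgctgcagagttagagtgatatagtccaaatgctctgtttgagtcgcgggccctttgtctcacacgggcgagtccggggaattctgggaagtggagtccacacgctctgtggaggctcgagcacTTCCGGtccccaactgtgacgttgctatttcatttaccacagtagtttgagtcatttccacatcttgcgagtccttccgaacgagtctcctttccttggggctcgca
ZNF615: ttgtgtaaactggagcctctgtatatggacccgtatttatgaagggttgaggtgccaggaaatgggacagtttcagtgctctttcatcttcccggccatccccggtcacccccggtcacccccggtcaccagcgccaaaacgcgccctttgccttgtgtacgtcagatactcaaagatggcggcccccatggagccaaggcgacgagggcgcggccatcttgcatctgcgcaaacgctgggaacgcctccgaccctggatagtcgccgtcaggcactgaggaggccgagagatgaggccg
ZNF317: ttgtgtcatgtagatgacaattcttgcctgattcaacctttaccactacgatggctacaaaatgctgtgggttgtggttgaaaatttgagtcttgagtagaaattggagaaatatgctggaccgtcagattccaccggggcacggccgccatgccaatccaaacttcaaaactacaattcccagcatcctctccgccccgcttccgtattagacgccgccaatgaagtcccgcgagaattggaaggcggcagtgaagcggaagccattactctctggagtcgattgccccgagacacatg
ZNF302: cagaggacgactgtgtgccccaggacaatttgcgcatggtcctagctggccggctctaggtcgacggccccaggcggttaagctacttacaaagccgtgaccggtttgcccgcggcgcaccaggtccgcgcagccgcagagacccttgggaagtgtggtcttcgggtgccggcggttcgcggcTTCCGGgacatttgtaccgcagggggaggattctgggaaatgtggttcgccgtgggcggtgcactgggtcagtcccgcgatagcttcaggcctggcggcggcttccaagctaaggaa
ZNF347: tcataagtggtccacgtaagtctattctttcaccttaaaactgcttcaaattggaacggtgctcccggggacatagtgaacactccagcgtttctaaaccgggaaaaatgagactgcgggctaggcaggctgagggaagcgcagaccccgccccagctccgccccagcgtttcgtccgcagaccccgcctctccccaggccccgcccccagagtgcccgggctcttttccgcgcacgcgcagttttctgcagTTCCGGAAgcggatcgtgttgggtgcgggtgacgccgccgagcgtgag
ZNF761: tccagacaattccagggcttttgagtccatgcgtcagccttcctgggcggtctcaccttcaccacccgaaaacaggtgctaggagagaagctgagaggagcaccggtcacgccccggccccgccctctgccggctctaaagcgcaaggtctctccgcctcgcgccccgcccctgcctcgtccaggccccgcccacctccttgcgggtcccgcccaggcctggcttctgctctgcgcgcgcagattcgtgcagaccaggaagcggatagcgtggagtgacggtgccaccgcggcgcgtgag

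The core was present once in ZNF222 and ZNF302 and on both strands, overlapping, in ZNF347, and it was not found in the windows of ZNF844, ZNF615, ZNF317 and ZNF761. Of the 221 members, 196 had a promoter in the table, and 110 of these (56.1%) held the core on at least 1 strand. The same was true of 48.7% of the promoters of ZNF genes on other chromosomes, 28.5% of those of protein-coding genes kept and 17.6% of all 27305 promoters of the same length. By response the shares were close, as 54.0% of those higher with kahweol held it, 50.0% of those lower and 61.3% of those not called. A TATA box (TATAAA) was present in 2.04% of the members' promoters and 6.06% of those of protein-coding genes, and an E-box (CACGTG) in 4.59% and 10.0%. The GC box (GGGCGG) was found in 66.3% and 69.2%, the antioxidant response element (TGACNNNGC) in 14.3% and 14.9%, the YY1 core (GATGGCG) in 7.14% and 7.23%, and the cAMP response element (TGACGTCA) in 3.57% and 3.12%. The amino acid response element (TTGCATCA) occurred in 0.510% and 0.459%. Each motif was searched on both strands, and a match is a description of the letters and not of a bound factor.

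Along the chromosome the members fell into 20 clusters, taking a gap of over 500 kb between starts as a boundary and numbering from the end of the short arm, and 10 clusters of at least 5 members held 205 of them. The share that rose with kahweol was 62.5% of 72 members on the short arm and 62.4% of 149 on the long arm. Among these 10 the highest share was in cluster 11 (36672962 to 38270230, GRCh37), where 22 of 25 members (88.0%) rose, none fell, and the median log2 fold change was 1.05 in siControl cells and 1.03 in siCTGF cells. These were ZNF565, ZNF146, ZNF566, ZNF260, ZNF529, ZNF382, ZNF461, ZNF567, ZNF850, ZNF790, ZNF829, ZNF568, ZNF420, ZNF585A, ZNF585B, ZNF383, ZNF527, ZNF569, ZNF570, ZNF540, ZNF571 and ZNF607. Among them ZNF540, at 39 counts in siCTGF_KW and 10 or fewer elsewhere, reached the count minimum through that library. In cluster 5 (11594244 to 12744648) 19 of 26 rose, with medians of 0.87 and 0.86: ZNF627, ZNF823, ZNF441, ZNF440, ZNF439, ZNF433, ZNF878, ZNF844, ZNF20, ZNF625, ZNF136, ZNF44, ZNF442, ZNF799, ZNF443, ZNF709, ZNF564, ZNF490 and ZNF791. In cluster 18 (52074536 to 54083523) 24 of 36 rose and 4 fell, with medians of 0.91 and 0.83. Those that rose were ZNF175, ZNF577, ZNF649, ZNF613, ZNF350, ZNF615, ZNF614, ZNF432, ZNF841, ZNF616, ZNF808, ZNF701, ZNF600, ZNF28, ZNF468, ZNF888, ZNF816, ZNF160, ZNF845, ZNF525, ZNF765, ZNF761, ZNF813 and ZNF331.

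In clusters 14, 20, 4 and 7 the share that rose was 65.0%, 58.5%, 58.3% and 57.1%. In cluster 14 (44100544 to 45004574) 13 of 20 members rose and none fell: ZNF283, ZNF45, ZNF155, ZNF230, ZNF222, ZNF223, ZNF284, ZNF224, ZNF225, ZNF227, ZNF233, ZNF235 and ZNF180. Of these, ZNF233 had 9 counts in siControl and 9 in siCTGF. It reached the count minimum through siControl_KW and siCTGF_KW, with 42 and 44. In cluster 4 (8574562 to 9896859) 7 of 12 rose, namely ZNF558, ZNF317, ZNF699, ZNF559, ZNF266, ZNF426 and ZNF561. Cluster 20 (57702868 to 59000900), the largest, held 41 members, of which 24 rose and 4 fell. Its rising members were ZNF264, ZNF805, ZNF460, ZNF543, ZNF304, ZNF547, ZNF548, ZNF419, ZNF549, ZNF550, ZNF416, ZNF530, ZNF134, ZNF211, ZNF551, ZNF671, ZNF776, ZNF586, ZNF814, ZNF418, ZNF256, ZNF329, ZNF274 and ZNF324. In cluster 7 (19778962 to 22034870) 12 of 21 rose: ZNF14, ZNF506, ZNF253, ZNF93, ZNF90, ZNF486, ZNF737, ZNF626, ZNF430, ZNF431, ZNF100 and ZNF43.

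The other 3 clusters of this size moved less. In cluster 8 (23404401 to 24312770), the last of the short arm, ZNF675 and ZNF254 of 6 members rose and the median log2 fold change was 0.12 in siControl cells and -0.12 in siCTGF cells. In cluster 10 (35168544 to 35455133) ZNF30 rose and ZNF302 fell among 5. In cluster 19 (55987984 to 57135854) ZNF581, ZNF787, ZNF583, ZNF470 and ZNF71 of 13 rose and ZNF784 fell, and its transcripts had a median GC content of 64.8%. Of the 16 members outside these clusters, 9 rose past the test, namely ZNF555, ZNF57, ZNF77, ZNF557, ZNF333, ZNF507, ZNF574, ZNF296 and ZNF473. Of all genes 22.9% were higher and 23.6% lower in the same fit. The share of members that rose also varied with level, from 18.75% of those under 1 TPM to 72.3% of those over 4 TPM. The differences between clusters were not tested, and members of a cluster can share reads and sequence.

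**Figure D3:**
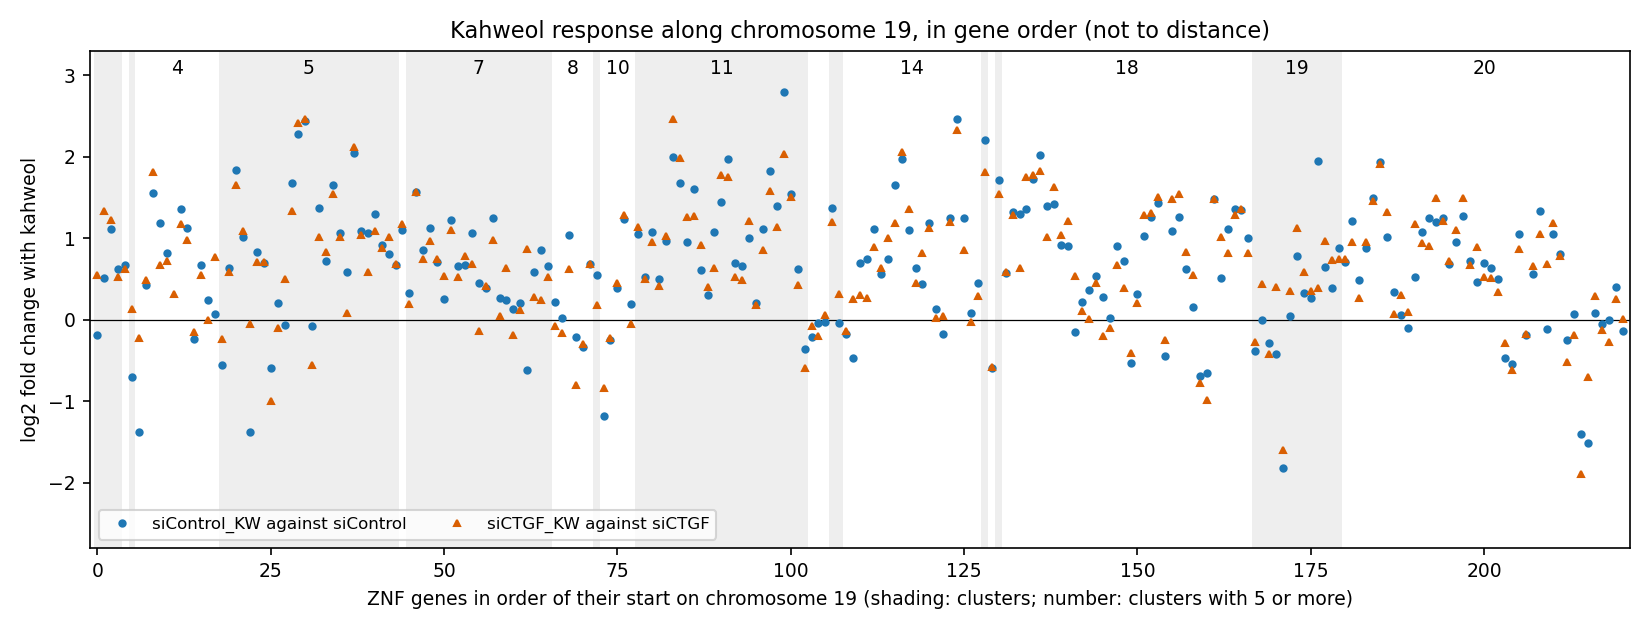
Log2 fold change with kahweol (y axis) of the 221 ZNF genes in the order of their starts on chromosome 19 (x axis, by rank and not by distance), with circles for siControl cells and triangles for siCTGF cells and shading for alternate clusters. Points of cluster 11 lie almost all above 0, clusters 5, 18 and 20 hold points on both sides of 0, and 1 value (ZNF177 in siControl cells) lies outside the axis.

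The size of the response varied with features of the transcript. A KRAB pattern was found in the longest coding sequence of 188 of 220 members with a transcript in GENCODE (85.5%), beside 40.9% of the ZNF genes on other chromosomes and 2.16% of protein-coding genes. Of the 188, 127 rose and 8 fell with kahweol (67.6% higher), with medians of 0.72 in siControl cells and 0.74 in siCTGF cells. Of the 32 members without the pattern, 11 rose and 4 fell (34.4% higher), with medians of -0.02 and 0.27. On other chromosomes 42 of 96 ZNF genes with the pattern rose (43.8%) and 54 of 139 without it (38.8%). The members had a median of 12 fingers, from 0 to 31 by the pattern used, and the share that rose was 46.5% with up to 8 fingers, 71.0% with 9 to 12, 63.1% with 13 to 16 and 65.1% with 17 or more.

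The 2 classes of members also differed in base composition, with a median transcript GC content of 42.2% with the KRAB pattern and 61.5% without it, and the response of all protein-coding genes varied with GC content too. Over 4 equal bins of all protein-coding genes from low to high GC, the median log2 fold change with kahweol in siControl cells was 0.18, 0.10, -0.07 and -0.41, and in siCTGF cells 0.11, 0.06, -0.05 and -0.23. The members within these bins, 121, 67, 11 and 21 genes, had medians of 0.85, 0.65, 0.46 and -0.14 in siControl cells and 0.72, 0.68, 0.74 and 0.25 in siCTGF cells. In the lowest bin 68.6% of the members and 35.9% of the protein-coding genes were higher in the additive fit, and in the highest bin 23.8% and 12.9%. After removal of the trends with GC content and length, the members' median in siControl cells was 0.53. Mitochondrial rRNA took 3.11% to 3.94% of counts in untreated and 4.33% to 6.01% in kahweol libraries, and small noncoding RNA 1.48% to 1.54% and 2.03% to 2.26%. The part of GC content and of these RNA classes in the rise was not tested beyond this.

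**Figure D4:**
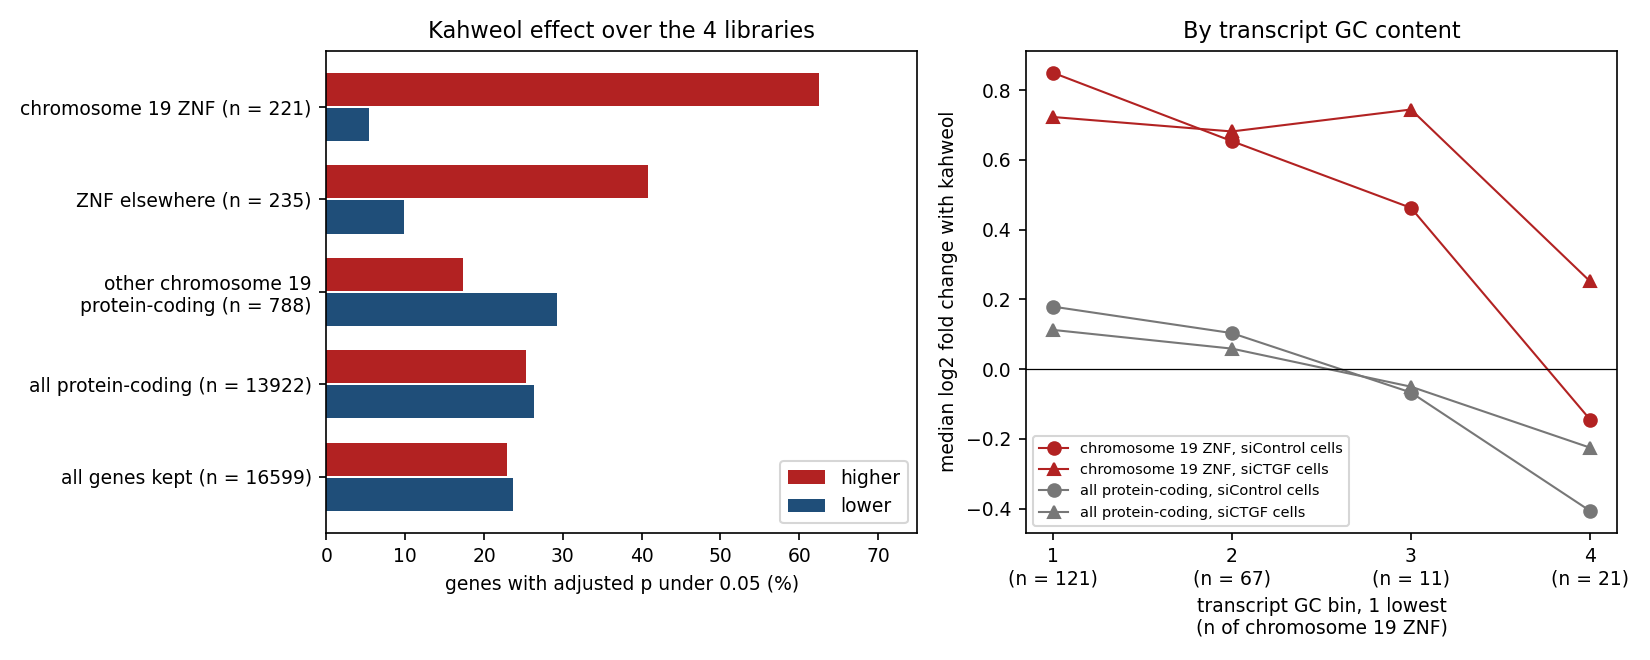
Left, percent of genes higher (red) or lower (blue) with kahweol in the additive fit (adjusted p under 0.05) for the chromosome 19 ZNF genes and 4 comparison sets. Right, median log2 fold change with kahweol by transcript GC bin for the chromosome 19 ZNF genes (red) and all protein-coding genes (grey), with circles for siControl and triangles for siCTGF cells, where the red points lie above the grey points in every bin.

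CTGF siRNA moved few of these genes far. In the additive fit ZNF761 was higher in siCTGF and no member was lower, where 0.0663% of all genes were higher and 0.0602% lower. No member was lower by DESeq2 or limma-voom either, and 37 members were higher and 6 lower in the edgeR fit where an unadjusted p of 0.05 was the limit, beside 5.13% and 4.78% of all genes. In untreated cells 37 members were over 1.3-fold and 6 under 0.7-fold, beside 9.63% and 8.99% of all genes, and in kahweol-treated cells 37 and 5, beside 14.7% and 7.83%. These counts come to 16.7% of the members over 1.3-fold in each comparison. The median log2 fold change was 0.12 in untreated and 0.08 in kahweol-treated cells. In both comparisons, which share no library, 13 members were over 1.3-fold, 1 was under 0.7-fold, beside 3.25% and 2.24% of all genes, and 3 crossed in opposite directions, as did 678 of all genes. The sign was the same for 151 of 221 (68.3%), beside 56.0% of all genes. Both siCTGF libraries lay above both siControl libraries, whatever the treatment, for 21 members (7.99% of all genes) and below them for 10 (7.86%).

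ZNF761 (chr19:53935237-53961515, plus strand), a KRAB zinc finger gene of cluster 18, was at 16.7 CPM in siControl, 28.8 in siCTGF, 42.9 in siControl_KW and 70.5 in siCTGF_KW. Each siCTGF library was above its control and each kahweol library above its untreated counterpart, so that the level in siCTGF_KW was the highest. The log2 fold change with CTGF siRNA was 0.79 (interval 0.63 to 0.95) without kahweol and 0.72 (0.60 to 0.83) with it, and the fitted value was 0.75 ± 0.09 (SE, adjusted p = 0.0461, edgeR quasi-likelihood test, Benjamini-Hochberg adjusted). The call was lost with no covariate for kahweol and with no filter on low counts. The gene overlaps TPM3P9 and the read-through gene ZNF765-ZNF761 on its own strand. With the counts of the read-through gene added, its counts were 1118, 1561, 1863 and 3235 and the log2 fold changes 0.69 and 0.76.

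The other members with the strongest increase in both siCTGF comparisons were ZNF737, ZNF616, ZNF841, ZNF585B and ZNF845, none of which passed the test. ZNF616 (chr19:52616344-52643191) was at 5.54 CPM in siControl, 9.50 in siCTGF, 10.4 in siControl_KW and 21.98 in siCTGF_KW, with log2 fold changes of 0.77 in untreated cells and 1.08 in kahweol-treated cells (adjusted p = 0.105, edgeR quasi-likelihood test, Benjamini-Hochberg adjusted). ZNF841 (chr19:52561348-52599018), its neighbor, was at 11.97 CPM in siControl, 18.4 in siCTGF, 22.6 in siControl_KW and 37.9 in siCTGF_KW, with log2 fold changes of 0.62 in untreated cells and 0.75 in kahweol-treated cells. Both of them passed with DESeq2. ZNF845 (chr19:53836972-53860159) was at 18.00 CPM in siControl, 25.2 in siCTGF, 50.1 in siControl_KW and 70.3 in siCTGF_KW, and the log2 fold change was 0.49 in each treatment. Together with ZNF765, ZNF761 and these 3 genes of cluster 18 made up 5 of the 13 members over 1.3-fold in both comparisons. Cluster 18 holds 36 of the 221 members, and ZNF765 and ZNF761 share the read-through gene ZNF765-ZNF761.

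ZNF737 (chr19:20720798-20748587), in cluster 7, was at 5.41 CPM in siControl, 9.72 in siCTGF, 8.64 in siControl_KW and 16.7 in siCTGF_KW, with log2 fold changes of 0.84 in untreated cells and 0.95 in kahweol-treated cells. ZNF585B (chr19:37672481-37701438) was at 5.52 CPM in siControl, 9.39 in siCTGF, 8.71 in siControl_KW and 13.1 in siCTGF_KW, and its coding sequence is 96.1% identical to that of ZNF585A, so that reads can be split between the pair. The remaining members over 1.3-fold in both were ZNF77, ZNF714, ZNF675, ZNF875, ZNF547 and ZNF540, the last with no count in siControl. In the other direction ZNF30 (chr19:35417807-35436076) was at 5.44 CPM in siControl, 3.49 in siCTGF, 12.8 in siControl_KW and 8.54 in siCTGF_KW, the sole member under 0.7-fold in both, with log2 fold changes of -0.63 in untreated cells and -0.59 in kahweol-treated cells. It rose with kahweol, by 1.23 in siControl cells and 1.28 in siCTGF cells. Among the 10 clusters, the median log2 fold change with CTGF siRNA in untreated cells was highest in cluster 8 (0.48) and cluster 7 (0.31), and in kahweol-treated cells it was 0.22 and 0.14 there.

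**Figure D5:**
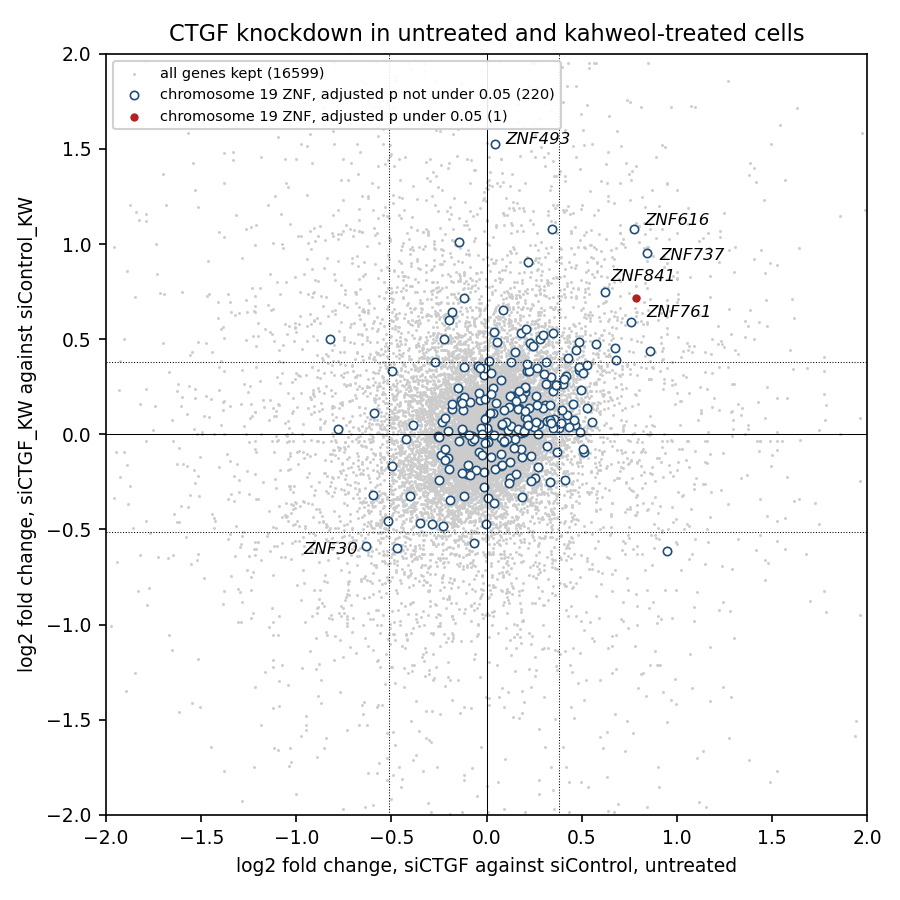
Log2 fold change with CTGF siRNA in untreated cells (x axis) and in kahweol-treated cells (y axis) for all 16599 genes kept (grey) and the 221 chromosome 19 ZNF genes (filled red for ZNF761, the gene with an adjusted p under 0.05, open otherwise). Dotted lines mark folds of 1.3 and 0.7, 13 members lie beyond the upper line on both axes and 1 (ZNF30) beyond the lower one, and 2 members (ZNF177 and ZNF540, without a count in siControl) lie outside the axes.

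At a mean count of at least 100, the kahweol response differed most between siRNA backgrounds in ZNF177, ZNF493, ZNF358, ZNF555, ZNF837 and ZNF606. Others differed by less, in both directions, with intervals that excluded 0. Among them were ZNF428, at 0.72 (0.47 to 0.98, siCTGF minus siControl cells), and ZNF100, at -0.60 (-0.86 to -0.35). The members of this kind were not counted. ZNF493 (chr19:21579935-21610379) had counts of 204 in siControl, 182 in siCTGF, 91 in siControl_KW and 273 in siCTGF_KW. With kahweol it was under 0.7-fold in siControl cells (log2 fold change -0.62, interval -1.17 to -0.11) and it was over 1.3-fold in siCTGF cells (0.86, 0.48 to 1.27), and it was the 1 member to cross in opposite directions. ZNF358, ZNF555, ZNF837 and ZNF606 differed by 0.80 to 0.83 on the log2 scale, siCTGF minus siControl cells, with an interval for ZNF837 that included 0 (-0.02 to 1.64). ZNF358 was at 9.22 CPM in siControl, 8.48 in siCTGF, 5.63 in siControl_KW and 9.26 in siCTGF_KW, with siControl_KW apart from the other 3 libraries. ZNF555 was at 7.57 CPM in siControl, 5.36 in siCTGF, 10.8 in siControl_KW and 13.6 in siCTGF_KW, and ZNF606 was at 6.78 CPM in siControl, 5.91 in siCTGF, 6.25 in siControl_KW and 9.50 in siCTGF_KW, where siCTGF_KW was the highest in each. At lower counts ZNF582 and ZNF491, chosen after their values were seen, differed by -1.56 (interval -3.03 to -0.09) and 1.32 (0.30 to 2.34). With 1 library per condition these differences could not be tested.

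ZNF177 (chr19:9473689-9493293, plus strand) was listed at 0 in siControl and shares its locus with a read-through gene. Its counts were 0 in siControl, 82 in siCTGF, 235 in siControl_KW and 84 in siCTGF_KW, and those of the read-through gene ZNF559-ZNF177, on the same strand, were 137, 36, 41 and 194 in the same order. Taken alone, ZNF177 had folds over siControl of 31.6 in siCTGF and 113 in siControl_KW, with the siControl count set at a floor of 3. Both folds depend on that floor. The counting intervals of these 2 comparisons began at 3.62 and 5.50 on the log2 scale. The sums of both genes were 137, 118, 276 and 278. On these sums the log2 fold change with CTGF siRNA was -0.01 without kahweol and -0.03 with it, and that with kahweol 1.54 in siControl and 1.52 in siCTGF cells. In all, 9 members share a read-through gene, 26 overlap another gene kept (10 on the same strand) and 6 have a coding sequence at least 95% identical to that of another member, so that 34 members are touched by at least 1 of these and 187 by none.

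Of 14 genes on a list with a described role, 11 were members and ZNF154, ZNF534 and ZNF677 were not, with mean counts of 1.5, 0.75 and 0. Repressors of transposable elements differed in their values. ZNF91, which represses SVA elements, was at 23.98 CPM in siControl, 34.1 in siCTGF, 24.3 in siControl_KW and 30.4 in siCTGF_KW, with log2 fold changes with kahweol of 0.02 in siControl cells and -0.17 in siCTGF cells. ZNF93, which targets LINE elements, was at 7.02 CPM in siControl, 8.09 in siCTGF, 11.5 in siControl_KW and 13.6 in siCTGF_KW and rose by 0.73 ± 0.15 (SE) in the fit. ZNF649, also tied to LINE elements, and ZNF808, which represses MER11 elements in pancreas development, rose by 0.97 and 0.79.

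ZNF587 and ZNF417, a pair of near-identical repressors of HERVK with coding sequences 99.1% identical, had values below 0. ZNF587 was at 33.4 CPM in siControl, 38.4 in siCTGF, 22.9 in siControl_KW and 24.95 in siCTGF_KW and fell with kahweol, with log2 fold changes of -0.54 in siControl cells and -0.62 in siCTGF cells. ZNF417 was at 15.3 CPM in siControl, 17.02 in siCTGF, 13.4 in siControl_KW and 15.1 in siCTGF_KW, with log2 fold changes of -0.19 in siControl cells and -0.17 in siCTGF cells, and did not pass the test (adjusted p = 0.262, edgeR quasi-likelihood test, Benjamini-Hochberg adjusted). ZNF274, which binds the ends of other ZNF genes and recruits SETDB1 to them, was at 31.9 CPM in siControl, 33.8 in siCTGF, 55.9 in siControl_KW and 58.1 in siCTGF_KW and rose by 0.80 ± 0.09 (SE). Of the genes studied as silenced in tumors, ZNF154 and ZNF677 were below the count minimum. The other 3 rose in the fit, ZNF331 by 0.92, ZNF671 by 0.68 and ZNF382 by 2.32, and ZNF671 did not pass with DESeq2. ZNF382 was at 0.425 to 2.52 CPM only. ZNF146 rose by 0.51 ± 0.07 (SE).

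The genes of proteins with which KRAB domains act were found among those higher and among those lower. All 44 genes of a list of KRAB corepressors and their partners were measured, and 16 were higher and 11 lower with kahweol (36.4% and 25%), beside 22.9% and 23.6% of all genes. The median over the 44 was 0.06 on the log2 scale in each siRNA background. TRIM28, the scaffold bound by the KRAB domain and itself a gene of chromosome 19, was at 341 CPM in siControl, 351 in siCTGF, 416 in siControl_KW and 485 in siCTGF_KW. It rose by 0.38 ± 0.07 on the log2 scale (SE, adjusted p = 0.00398, edgeR quasi-likelihood test, Benjamini-Hochberg adjusted). SETDB1, the histone methyltransferase of the complex, was at 33.9 CPM in siControl, 33.8 in siCTGF, 35.8 in siControl_KW and 33.6 in siCTGF_KW, with a fitted value of 0.03 ± 0.09.

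Among those over 1.3-fold in both kahweol comparisons, the strongest by the smaller of the 2 values were the MORC family members MORC3 and MORC2 and GATAD2B and CHD4, subunits of the NuRD complex. GATAD2B was at 13.3 CPM in siControl, 16.3 in siCTGF, 28.5 in siControl_KW and 25.9 in siCTGF_KW, and the fitted log2 fold changes were 0.88 for GATAD2B, 0.83 for MORC3, 0.73 for MORC2 and 0.53 for CHD4. Those under 0.7-fold in both were UHRF1 and DNMT1, which maintain DNA methylation, the NuRD subunit MBD3 and CBX5, a heterochromatin protein 1. UHRF1 was at 124 CPM in siControl, 128 in siCTGF, 59.8 in siControl_KW and 51.3 in siCTGF_KW. The fitted log2 fold changes were -1.19 for UHRF1, -1.12 for MBD3, -0.87 for CBX5 and -0.68 for DNMT1. With CTGF siRNA none of the 44 passed by edgeR, DESeq2 or limma-voom. By the unadjusted p of edgeR (under 0.05) 4 of the 44 were higher and 2 lower, beside 5.13% and 4.78% of all genes.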

How the data were processed

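Total RNA of 4 samples was depleted of rRNA, made into stranded libraries and sequenced in paired reads of 100 bases. The submitters' processing notes name Trimmomatic 0.38, FastQC 0.11.7, HISAT2 2.1.0, Bowtie2 2.3.4.1 and StringTie 2.1.3b with the build GRCh37.p13. The strand setting, the handling of reads with several matches and other filters are not given in the sources used here, and both can change the values of zinc finger genes, which are alike in sequence. The counts deposited by the authors are whole numbers of reads per gene, without normalization. TPM and FPKM, also deposited by the authors, came from StringTie, and the coverage signal deposited by the authors is the mean depth per base of a gene. FPKM and coverage served to check the counts, which stand for 104 to 106 bases each, near 1 read. Every column matched a sample, and 0 columns were left unmatched.

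Genes were kept from a mean count of 10 upward. TMM scaling was done in edgeR 4.0.16 under R 4.3.3, and log2 CPM were taken with a prior count of 2. Fold changes of single libraries carry exact Clopper-Pearson counting intervals of 95%. These took 2 reads as 1 fragment, had a median width of 0.431 to 0.514 on the log2 scale over the members, and cover counting error only. For the additive fit, the quasi-likelihood test of edgeR was run over all 16599 genes and adjusted by Benjamini-Hochberg, with a threshold of 0.05. The SE printed with a fitted value was derived from that test, as the absolute value over the root of its F statistic. Like the p-values, it does not measure the spread between cultures. The fit was tested on simulated counts with the same dispersion for every gene, few changed genes and no interaction between the factors. Those settings are simpler than these data. Alternatives were DESeq2 1.42.0, limma-voom (limma 3.58.1), other scalings, filters and pseudocounts, and removal of GC and length trends by lowess (statsmodels 0.14.6).

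Transcripts, coding sequences and GC content came from GENCODE 29 and promoters from RefSeq, both on GRCh38 and joined by gene identifier only. Fingers were counted as pairs of cysteines and histidines 12 residues apart. One member, ZNF788P, is listed as protein-coding under a pseudogene symbol and had no transcript there. The genes named are all those past the fit, the 6 strongest in each direction over both comparisons of an effect at a mean count of at least 100, the 6 of highest mean TPM, the 6 with the largest difference between the kahweol comparisons at the same minimum, the 3 on each side of the count minimum and those with a described role. The members and lists were chosen with earlier results of these data known.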

Additional observations from a re-analysis of the deposited data

Results flagged for a closer look

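ZNF493 moved in opposite directions with kahweol in the 2 siRNA backgrounds. Its counts were 204 in siControl, 91 in siControl_KW, 182 in siCTGF and 273 in siCTGF_KW, and the log2 fold change with kahweol was 1.49 higher in siCTGF than in siControl cells (counting interval 0.85 to 2.12). With 1 library in each condition the difference was not tested.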

How the results depend on the processing

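No median or called value of the members changed its direction under the alternatives run. Among fitted values that passed no test, the effect of CTGF siRNA on ZNF177 was 0.91 with edgeR, 3.83 with DESeq2 and -0.60 with limma-voom, and that on ZNF581 was -0.01, -0.01 and 0.01. The count of members higher with kahweol in the additive fit was 125 to 139 over edgeR, DESeq2 and limma-voom, other size factors, filters and the fit without covariate. DESeq2 kept 125 of the 138 members higher and 7 of the 12 lower, and called no other. Of the calls lost, those of ZNF585B, ZNF665, ZNF671 and ZNF837 are of genes also named by another rule. For CTGF siRNA the count of members higher was 3 with DESeq2, 4 with DESeq2 size factors in edgeR, 4 at a mean count of at least 100, and 0 both with no covariate and with no filter. The causes were not tested. Under scaling by total counts the median of all genes with kahweol was -0.15 in both backgrounds, beside values near 0 under TMM. It was -0.17 and -0.18 with log2(TPM + 1), and -0.24 and -0.25 with log2(TPM + 0.1). The members' median with kahweol was then 0.54, 0.38 and 0.43 in siControl cells and 0.51, 0.31 and 0.38 in siCTGF cells, and 23 members were under 0.7-fold in siControl cells with log2(TPM + 0.1). Removing GC and length trends, an alternative chosen after seeing the data, gave a median of 0.53 in siControl cells.

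With CTGF siRNA in untreated cells the members' median was 0.0596 with log2(TPM + 1) and 0.0677 with log2(TPM + 0.1), 13 members were over 1.3-fold and 3 under 0.7-fold with log2(TPM + 1), 11 were over a 1.5-fold threshold, and 3 were under 0.7-fold at a mean count of at least 100 and 13 with no filter. In kahweol-treated cells the median was 0.0424 under total-count scaling, 0.0028 with log2(TPM + 1) and 0.0032 with log2(TPM + 0.1). There 17 members were over 1.3-fold with log2(TPM + 1) and 14 over 1.5-fold, and the count under 0.7-fold was 3 with log2(TPM + 1), 9 with log2(TPM + 0.1), 3 at a mean count of at least 100 and 8 with no filter. It was 3 without members that share a read-through gene or a near-identical sequence, also chosen after seeing the data, and 3 where the counting interval had to exclude 0. Leaving out a library was not run, since the condition would then hold none. No paired analysis by replicate number was possible because the labels give none, and the additive fit already sets kahweol against untreated cells within each siRNA background. Depth limits members of low count: ZNF878, at 65 to 292 counts, had an interval of 1.80 to 2.85 in siControl cells.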
